A study of Xenopus tropicalis with 4 samples.

Results

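The genes of the E2F and DP transcription factors were examined for called binding peaks of E2F1 and OTX1 in Xenopus tropicalis embryos. The family was set by name as e2f1 to e2f8, tfdp1 and tfdp2, and 9 of these 10 names matched a protein-coding gene among the 21749 on the 10 chromosomes. The name e2f2 matched no entry of the gene table, and that gene is not analysed here. Peaks were taken within 10 kb of each gene, and a region counted when peaks of both replicate lists of a factor shared at least 1 bp.

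E2F proteins bind DNA at the promoters of cell cycle genes, and most of them do so as dimers with a DP protein, encoded by the tfdp genes. Pocket proteins of the retinoblastoma family bind E2F proteins and block activation until cyclin-dependent kinases phosphorylate them. In mammals E2F1 and E2F3 act mainly as activators, E2F4 and E2F5 mainly as repressors with pocket proteins, and E2F6 represses without pocket proteins. The atypical members E2F7 and E2F8 repress without a DP partner, and several E2F genes in mammals are themselves targets of E2F proteins.

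The samples were whole embryos at stage 8, a blastula stage, mapped by chromatin immunoprecipitation and sequencing with 2 libraries for each factor. For E2F1, the embryos carried injected E2F1 mRNA with an MO, the genotype was given as an E2F1 rescue, and the antibody was against HA. For OTX1, a homeodomain factor, they carried injected OTX1 mRNA with an MO, the genotype was an OTX1 rescue, and the antibody was against the Myc tag. MO usually stands for morpholino oligonucleotide, whose target the labels do not give. The binding is thus that of tagged protein made from injected mRNA in whole embryos, and no uninjected or untagged sample was analysed here. Nothing in the labels says that replicates came from separate batches of embryos, so the spread between lists may be technical.

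The lists held 16770 and 20385 peaks for E2F1 and 27755 and 29098 for OTX1, with a median of 16, 16, 16 and 15 fragments at the summit. Joining the replicates gave 13216 E2F1 regions and 17768 OTX1 regions. The weakest peaks had a q of 0.0492 and 0.0470 for E2F1 and 0.00999 and 0.00977 for OTX1, so the factors were called at different thresholds, and antibody and factor cannot be told apart. Each fold below is the authors' ratio of the summit to the local background within 1 library, so folds are ranked only within a list. This ratio was read as fragments plus 1 over background plus 1. Coordinates are 1-based on xenTr10 (assembly UCB_Xtro_10.0). The gene table gives the ends of a gene without strand or exons, so a region is described by its distance to the nearer annotated end.

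E2F1 lay at 8 of the 9 family genes, in each case at an annotated end and at 1 end alone. The 8 genes were e2f1, e2f3, e2f4, e2f5, e2f6, e2f7, e2f8 and tfdp1, and tfdp2 was the gene without a reproducible region. Within 10 kb, the 8 of 9 (88.9%) stood beside 53.9% of all protein-coding genes with an E2F1 region. With the summit within 1 kb of an end, the 8 of 9 stood beside 34.9% of all genes. The median length of the 9 genes was 13301 bp, against 15506 bp for all protein-coding genes. In the single lists 8 of 9 genes had a peak in replicate 1 and 9 of 9 in replicate 2, where 58.9% and 64.4% of all genes had one. In all, 11 E2F1 regions lay near the family, 8 at an end of a member and 3 farther away. The farther ones were inside e2f1 or nearer to other genes than to e2f5. Leaving out e2f1, an alternative chosen after seeing the data, gave 8 regions.

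**Figure D1:**
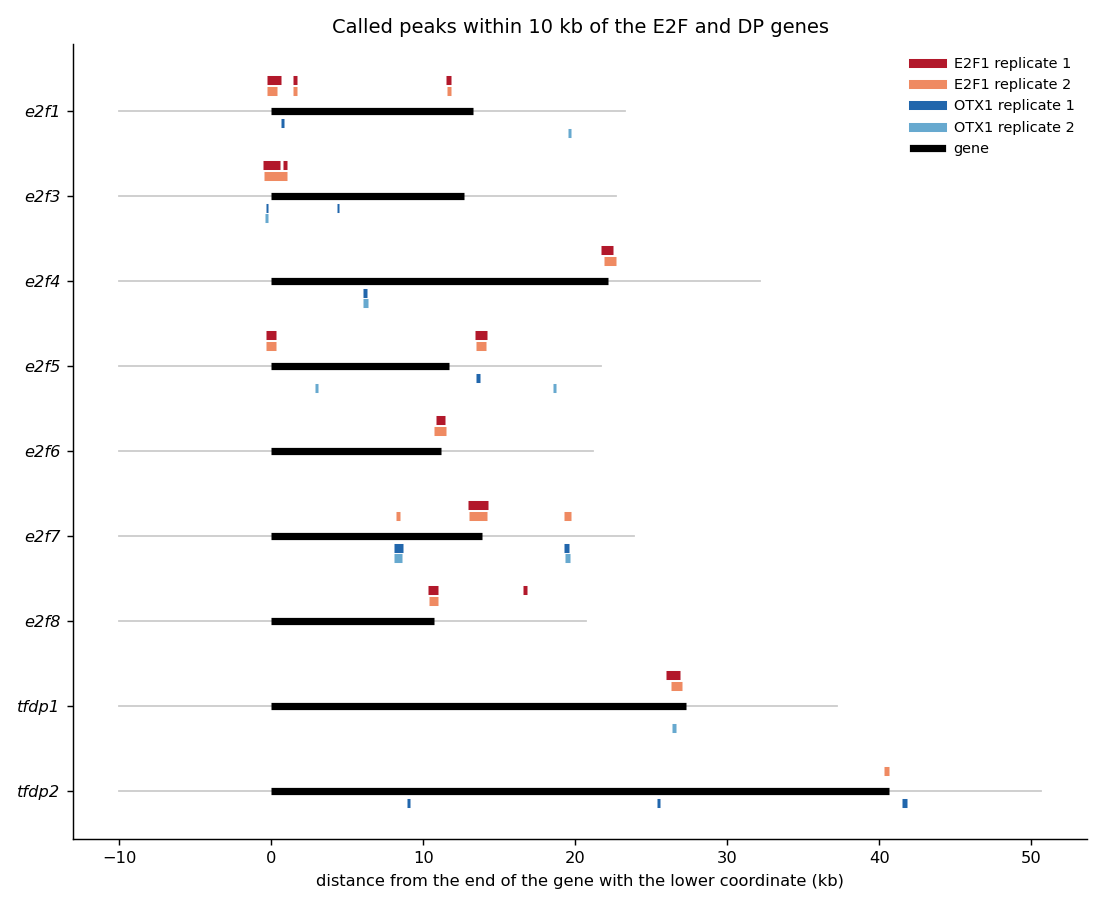
Peaks called within 10 kb of each of the 9 genes, by library. The horizontal axis is the distance in kb from the end of the gene with the lower coordinate, black bars are the genes, red and orange bars E2F1 peaks, and dark and light blue bars OTX1 peaks. E2F1 peaks of both lists sit at 1 end of every gene but tfdp2, and OTX1 peaks of both lists overlap at e2f3, e2f4 and e2f7.

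Among the activators, the e2f1 gene carried E2F1 at its own end. The region lay over the end of the gene (chromosome 10, 41691216 to 41692108), with the summit 28 bp inside. Its fold was 10.04 in replicate 1 and 12.7 in replicate 2, from 90 and 123 fragments at the summit over local backgrounds of 8.07 and 8.75. These folds stood at percentiles 94.0 and 97.8 of their lists. The summits of the replicates were 10 bp apart. A part of sequence from the injected E2F1 mRNA construct in this region was not tested.

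E2f3, the other activator measured, had the widest E2F1 region of the family, 1572 bp across its end (chromosome 6, 94332981 to 94334552). The fold was 11.95 and 12.54, from 133 and 163 fragments, and the summits of the lists differed by 2 bp. In replicate 1 a second, weak peak with a fold of 3.20 fell into the same region, where replicate 2 had a single peak of 1509 bp.

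The genes of the repressors e2f4 and e2f5 had the lowest folds among the 8 gene-end regions. At e2f4 (chromosome 4, 76534328 to 76535326) the fold was 5.80 and 6.06, from 16 fragments at the summit in each list. The end of a neighbouring gene known only by a locus number lay 120 bp from that of e2f4, so this region was at the ends of both. At e2f5 (chromosome 6, 125171359 to 125172065) the fold was 5.77 and 7.93, from 23 and 36 fragments, with the summit 60 bp from the end. A further E2F1 region 2042 bp beyond the other end of e2f5 had folds of 6.54 and 7.39, and its summit lay 87 bp from an end of the gene listed as car1_predicted and within 1 kb of an end of rbis. That region is therefore nearer to other genes than to e2f5.

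The gene of e2f6, the repressor that acts without pocket proteins, had a region over its end (chromosome 5, 138937650 to 138938425) with folds of 9.65 and 11.2, from 34 and 46 fragments. Of the atypical members, e2f8 had the highest fold of the family in each list. Its region (chromosome 4, 4258807 to 4259487) had folds of 14.2 and 15.5, from 80 and 99 fragments, with the summit 92 bp from the end. It ranked 107th of the 13216 E2F1 regions by the mean of its fold percentiles in the lists, and 83rd of the 6798 at gene ends. At e2f7 (chromosome 3, 61572020 to 61573322) the fold was 9.75 and 13.2, from 112 and 193 fragments, the latter the tallest summit of the family.

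The DP genes differed in their calls. The tfdp1 region (chromosome 2, 115841842 to 115842845) had folds of 7.79 and 12.7, from 36 and 61 fragments. Its summit lay 694 bp inside the end, while those of the other 7 genes lay 28 to 92 bp from theirs. These are summits of the list with the higher fold percentile. At e2f4 the summit lay 212 bp from the end in replicate 1 and 68 bp in replicate 2. At tfdp2 only replicate 2 had an E2F1 peak, a weak one 120 bp from the end with a fold of 3.88 and 11 fragments (exact 95% Poisson interval 5.49 to 19.7). Its −log10 q was 3.27, and a place without a call in replicate 1 is not shown to be unbound. The nearest reproducible E2F1 region was 22533 bp from tfdp2.

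**Figure D2:**
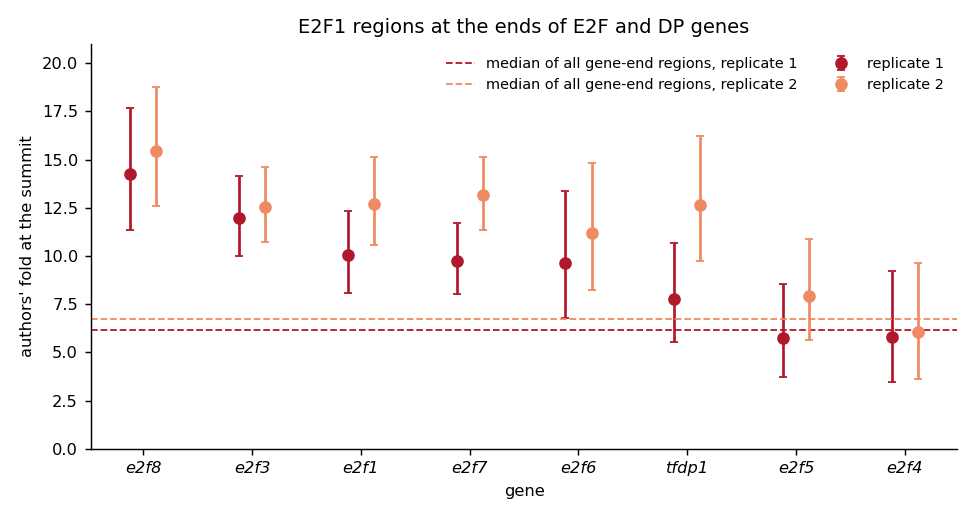
The authors' fold at the summit of the E2F1 region at the end of each of 8 genes, in replicate 1 and replicate 2. Bars are exact 95% Poisson intervals of the summit fragments plus 1, divided by the local background plus 1, with the background taken as fixed. Dashed lines are the medians of all gene-end regions, 6.16 and 6.72. E2f8 is highest in each list, and e2f4 and e2f5 lie near the dashed lines.

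The median fold of the 8 regions was 9.70 in replicate 1 and 12.6 in replicate 2, where all gene-end E2F1 regions had medians of 6.16 and 6.72. By mean percentile, 5 of them were above the 90th percentile of all E2F1 regions, those at e2f8, e2f3, e2f1, e2f7 and e2f6. Among the 6798 gene-end regions alone, e2f7 ranked 532nd and e2f6 706th, so e2f6 lay below the 90th percentile of those. All 8 had a higher fold in replicate 2 than in replicate 1, as did the median of all E2F1 regions (5.85 and 6.23). The counting intervals of the fold were separate in both lists for 3 of the 28 pairs of members, e2f8 against e2f5, e2f8 against e2f4, and e2f3 against e2f4. None of these pairs are neighbours in the order, so no neighbours were separate in both lists. By fold, only e2f8 (1st) and e2f1 (3rd) kept their places between the lists. The other genes moved, e2f3 from 2nd to 5th, and e2f4 and e2f5 changed places. These intervals cover counting error alone and not the spread between embryos. Without the peaks above the 90th percentile of local background in their list, the gene-end regions of e2f1, e2f3, e2f7 and e2f8 were lost and 4 genes kept one. The lost summits were the tallest of the 8, with 80 to 193 fragments against 16 to 61 at the other genes, and had local backgrounds of 4.69 to 13.8 fragments against 1.81 to 3.90.

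The e2f1 gene held 2 further E2F1 regions inside the gene, and these were unusually narrow for their height. With 3 regions it had the most of any member, and 3.74% of all protein-coding genes had 3 or more within 10 kb. The first internal region (chromosome 10, 41692876 to 41693184), 1479 bp from the end, had folds of 8.31 and 6.60, from 71 and 63 fragments. The second (41702967 to 41703280), 1705 bp from the other end, had folds of 7.38 and 7.03, from 23 and 22 fragments.

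The peaks of the first internal region were 309 and 276 bp wide, where peaks at least as significant had median widths of 777 and 720 bp. None of the other peaks that were as significant was as narrow, among 493 peaks in replicate 1 and 1619 in replicate 2, this one included. The second region had widths of 313 and 268 bp, and 7 of 3890 and 2 of 5704 peaks of at least its significance were as narrow, this one included. Its peaks had a −log10 q of 13.1 and 12.2. Peaks with a −log10 q of 10 to 14 had 1st and 5th width percentiles of 305 and 331 bp in replicate 1. In replicate 2 these percentiles were 289 and 318 bp. Against peaks of like significance, the second region was thus below the 1st percentile in replicate 2 alone. The upper edges of the peaks differed between the lists by 4 bp at the first region and 1 bp at the second. Over 13035 E2F1 regions with 1 peak in each list that difference had a median of 58 bp, and it was at most 4 bp in 4.43%. The lower edges differed by 29 and 46 bp, where the median over those regions was 60 bp. The peak at the end of e2f1 was not narrow, with 885 and 655 bp. These embryos had been injected with E2F1 mRNA, and exon positions were not used here. A part of sequence from the injected construct in the internal regions or the gene-end region of e2f1 was therefore not tested. The OTX1 lists held 1 peak inside otx1, in replicate 2 alone, with a fold of 3.56 and a width of 227 bp. Of OTX1 peaks at least as significant, 18% were as narrow. For the E2F1 peaks inside otx1, otx2 and crx, this share among E2F1 peaks ran from 0.567% (crx, replicate 2) to 8.12% (otx1, replicate 1). What sets these widths was not tested.

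**Figure D3:**
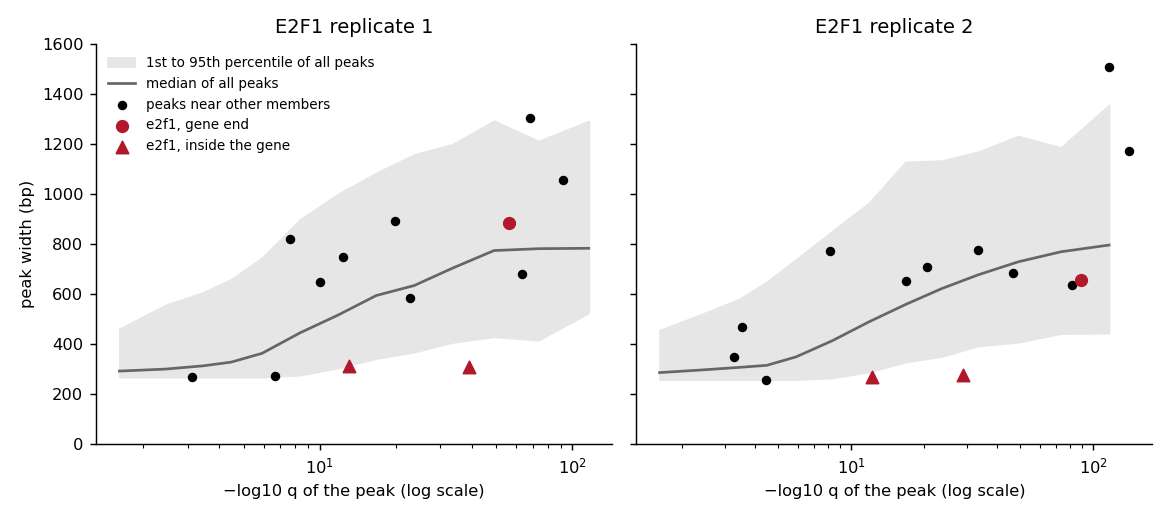
Width in bp of the E2F1 peaks near the family against their −log10 q (log scale), in replicate 1 (left) and replicate 2 (right). The grey band is the 1st to 95th percentile and the line the median of all peaks in bins of −log10 q, black points are peaks near the other genes, and red marks peaks of e2f1. The triangle at the higher −log10 q in each panel, 309 and 276 bp wide, lies far below the band, and the other triangle lies at or just below its lower edge.

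OTX1 had reproducible regions within 10 kb of 3 of the 9 genes, e2f3, e2f4 and e2f7. This share of 33.3% stood beside 41.9% of all protein-coding genes, so it was near the background. With the summit within 1 kb of an end the count was 1 of 9, e2f3, against 7.18% of all genes. In the single lists 6 of 9 genes had an OTX1 peak in each replicate, where 55.2% and 54.6% of all genes had one. The genes were e2f1, e2f3, e2f4, e2f5, e2f7 and tfdp2 in replicate 1, and e2f1, e2f3, e2f4, e2f5, e2f7 and tfdp1 in replicate 2. At e2f1 and e2f5 the peaks of the lists lay apart and made no region.

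The highest OTX1 fold of the family was inside e2f4 (chromosome 4, 76518673 to 76518965), 6190 bp from the nearer end. It was 10.1 in replicate 1 and 9.94 in replicate 2, from 35 and 31 fragments, at percentiles 98.9 and 97.1 of the lists. The region ranked 402nd of 17768 OTX1 regions. No E2F1 peak of either list overlapped it, and the nearest E2F1 region, at the end of the gene, was 15363 bp away.

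E2f7 was the member with 2 OTX1 regions, where 16% of all genes had 2 or more within 10 kb. The region inside the gene (chromosome 3, 61567158 to 61567742), 5631 bp from the nearer end, had folds of 6.95 and 9.07, from 38 and 37 fragments. The region outside (61578366 to 61578730), 5666 bp beyond that end, had folds of 6.52 and 5.34, from 24 and 18 fragments. These regions lay on either side of the E2F1 region at the end of e2f7, 4278 and 5044 bp from it.

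Both OTX1 regions of e2f7 were also met by weak E2F1 peaks of replicate 2. The inner one overlapped an E2F1 peak with a fold of 3.54, the summits 102 bp apart, and the outer one an E2F1 peak with a fold of 3.64, the summits 83 bp apart. Replicate 1 of E2F1 had no peak at either place, so neither counts as a shared region.

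E2f3 was the member where regions of the factors overlapped. Its OTX1 region (chromosome 6, 94333063 to 94333310) lay within the E2F1 region at the end of the gene, with summits 242 bp apart. The OTX1 fold was 3.79 in replicate 1 and 4.86 in replicate 2, from 14 and 16 fragments, at percentiles 8.06 and 37.1 of the lists. This OTX1 region was absent when peaks needed a −log10 q of at least 5 and when lists of equal length were used, so the count of OTX1 at a family gene end was then 0.

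**Figure D4:**
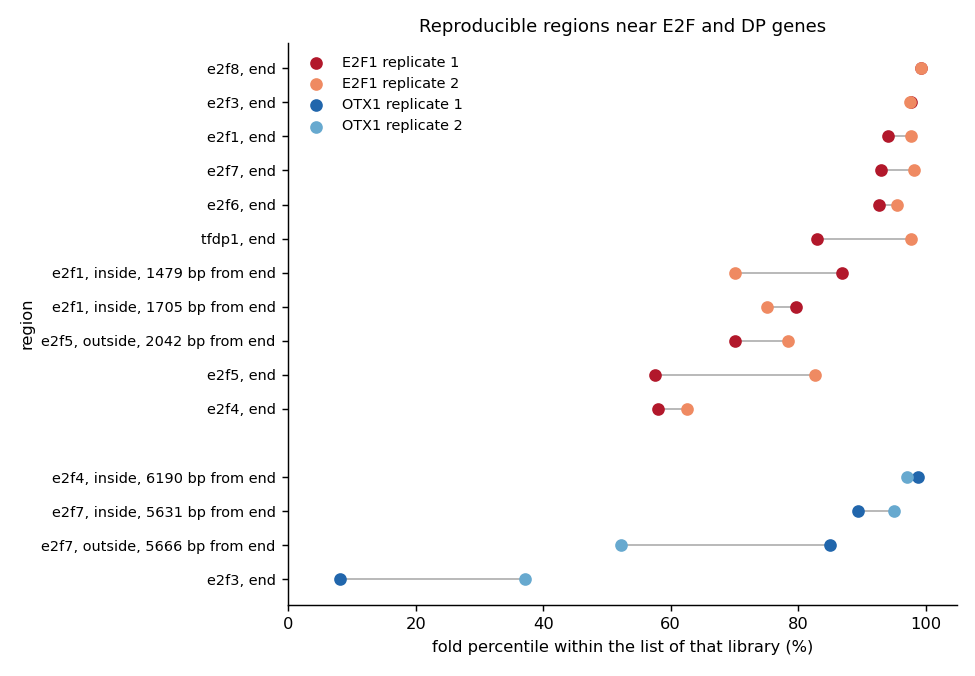
Fold percentile of each reproducible region near the family within the list of its library, with 1 row for each region (11 of E2F1 above, 4 of OTX1 below) and a grey line joining the replicates. The E2F1 regions lie between percentiles 57.5 and 99.3. The OTX1 region at the end of e2f3 is the lowest of all, and that inside e2f4 the highest of OTX1.

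Regions of each factor lay within 10 kb of 3 of the 9 genes, where 28.4% of all protein-coding genes had both. For e2f1, e2f5, e2f6, e2f8 and tfdp1, 5 of 9, there was an E2F1 region and no OTX1 region, against 25.5% of all genes. Among genes with an E2F1 region, 5 of 8 members had no OTX1 region, beside 5540 of all 11727 such genes. At e2f6 and e2f8 neither OTX1 list had a peak, and the nearest OTX1 regions were 17531 and 53893 bp from the genes. An overlap with an OTX1 region was found for 1 of the 11 E2F1 regions near the family, against 22.6% of all E2F1 regions. By gene, 1 of 9 had such an overlap, and 12.4% of all genes did. Since each factor was pulled down from its own embryos, such an overlap does not place both on the same DNA.

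Single OTX1 lists touched 3 more E2F1 regions of the family. At the end of e2f1, a peak of replicate 1 with a fold of 4.05 overlapped the E2F1 region by 15 bp. At tfdp1, a peak of replicate 2 with a fold of 5.97 had its summit 18 bp from that of E2F1. Beyond e2f5, at car1_predicted and rbis, a peak of replicate 1 with a fold of 3.67 lay inside the E2F1 region. In all 4 of the 11 E2F1 regions overlapped an OTX1 peak of either list, and 35.7% of all E2F1 regions did. From the OTX1 side, 3 of the 4 OTX1 regions overlapped an E2F1 peak of either list, and 28.6% of all OTX1 regions did. An overlap with a reproducible E2F1 region was found for 1 of these 4, against 17.0% of all OTX1 regions.

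The lists of E2F1 held more peaks near the family than those of OTX1, although the OTX1 lists were longer. There were 13 and 14 E2F1 peaks in replicates 1 and 2 (13.5 ± 0.707, SD, n = 2) and 10 and 8 OTX1 peaks (9 ± 1.41, SD, n = 2). Both E2F1 counts were above both OTX1 counts. Over all genes, 58.9% and 64.4% had an E2F1 peak within 10 kb in replicates 1 and 2, against 55.2% and 54.6% for OTX1. At gene ends lay 6798 of 13216 E2F1 regions and 1479 of 17768 OTX1 regions. Whether the higher E2F1 counts were particular to the family was not tested. The difference of 4.5 peaks had a two-sided exact permutation p = 0.333 over the 4 libraries, the smallest that 2 against 2 libraries allow. It was 7 peaks with a −log10 q of at least 5 and 8 peaks with lists of equal length, where the OTX1 mean was 4.5 in each case and the exact p stayed at 0.333. Of the 10 and 8 OTX1 peaks, 6 and 4 were in 1 list alone, and of the 13 and 14 E2F1 peaks 1 and 3 were. Over the whole lists, 64.5% and 61.9% of OTX1 peaks and 79.4% and 65.2% of E2F1 peaks overlapped a peak of the other replicate.

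Genes that work with the family were taken as 38 names in 5 lists, of which 36 matched a gene. E2F1 had a region within 10 kb of 34 of the 36 (94.4%, against 53.9% of all genes) and at an end of 28 (77.8%, against 34.9%). OTX1 had one within 10 kb of 20 (55.6%, against 41.9%) and at an end of 4 (11.1%, against 7.18%). At gene ends the median E2F1 fold of these genes was 7.45 and 8.90.

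Within 10 kb, 53.9% of all protein-coding genes had E2F1 and 41.9% had OTX1, the shares to set beside each list below. Pocket proteins and the MuvB core with its partners had E2F1 within 10 kb of 10 of 10 genes and OTX1 of 8 of 10. The highest E2F1 fold percentile among them was at the end of rbl1, a pocket protein gene (folds of 13.5 and 13.5), which also had OTX1 at an end (5.59 and 7.67). The MuvB subunit genes lin9 (8.65 and 14.3) and lin52 (7.28 and 8.35) had the highest OTX1 folds of this list. Among cyclins and their kinases E2F1 was near 9 of 9 genes and OTX1 near 3 of 9, and cdk2, the kinase of cyclin E, had the highest E2F1 fold (12.15 and 11.96).

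Of the kinase inhibitors 4 of 5 had E2F1 within 10 kb and 3 of 5 had OTX1, where 53.9% and 41.9% of all genes did. At cdkn2d, an inhibitor of the cyclin D kinases, the E2F1 fold was 12.5 and 17.3 and the OTX1 fold 9.67 and 8.24. Of the E2F6 partners in a polycomb complex 5 of 6 had E2F1 and 3 of 6 OTX1. Of the other regulators 6 of 6 had E2F1 and 3 of 6 OTX1, led for E2F1 by skp2, part of a ubiquitin ligase (13.3 and 13.7), and for OTX1 by uhrf1, a reader of methylated DNA (10.6 and 11.6). The genes without a reproducible E2F1 region were cdknx, with a peak in replicate 2 alone, and l3mbtl2, with a peak in each list that did not overlap. Those without a reproducible OTX1 region were rbbp4, foxm1, ccnd1, ccnd2, cdk4, ccne2, cdk2, ccna1, cdkn1b, cdknx, pcgf6, mga, cbx3, emsy, dyrk1a and hcfc1, of which 8 had no OTX1 peak in either list and 8 had peaks that made no region.

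**Figure D5:**
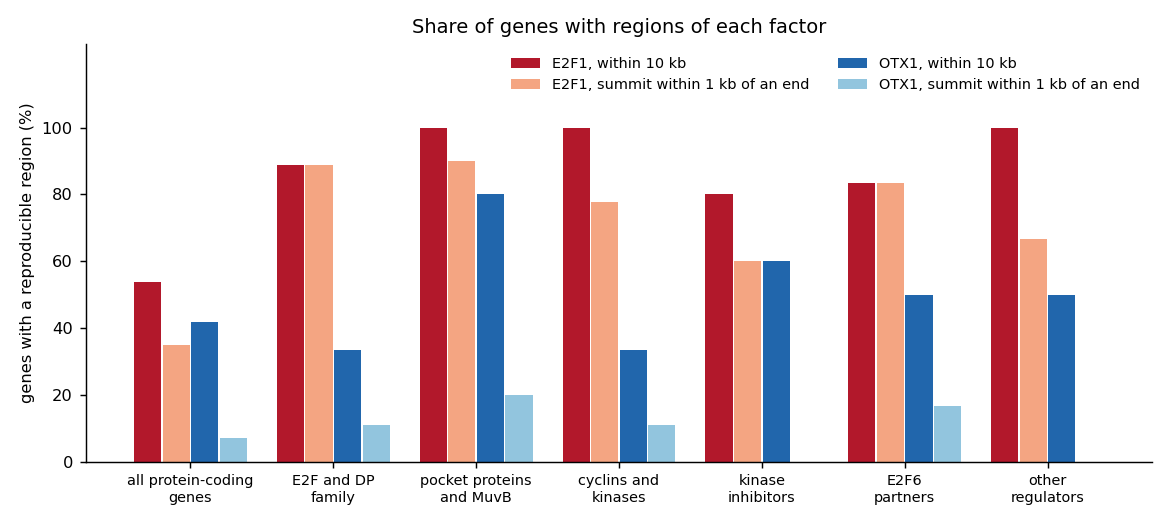
Percentage of genes with a reproducible region of E2F1 (red shades) or OTX1 (blue shades), within 10 kb of the gene (dark) or with the summit within 1 kb of an end (light). Groups are all protein-coding genes, the 9 E2F and DP genes and the 5 lists of genes that work with them. The E2F1 bars of the family reach 88.9%, and its OTX1 bars 33.3% and 11.1%.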

How the data were processed

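Chromatin from stage 8 embryos was sequenced in 4 libraries, and the authors deposited 1 peak list per library. Tools listed in the submitters' processing notes, with no role stated, are MACS2 2.2.7.1, Bowtie2 2.4.5, deepTools and fastp. Use of a control or a peak filter was not given in these sources. The deposited lists hold a score (10 times the −log10 q, in whole numbers, within 1 in 100% of peaks), a fold that is the authors' ratio over local background, and the authors' −log10 p-value and −log10 q-value. Read totals are not in these lists. Fragments and background at each summit were solved from fold and p, with 1 added to each in the fold (misfit in −log10 p at most 4.56e-05).

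Replicate peaks sharing at least 1 bp were joined, with the summit of the higher fold percentile. Genes came from a RefSeq table of UCB_Xtro_10.0. Members, lists and tests were chosen with earlier results of these data known. All members are named, and of the related genes the 4 with the highest fold percentile per factor and those without a region. No E2F or OTX motif was searched, since no sequence was used here. The joining and solving steps were tested on simulated data. Python 3.11.15 with pandas 2.3.3 and scipy 1.17.1 was used.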

Additional observations from a re-analysis of the deposited data

How the results depend on the processing

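Fold, fragments and depth are known only for called peaks, so an uncalled place is not shown to be unbound, and 2 lists per factor limit every count. Of 75 recomputed values, 50 were within 1.5 times the count reported or kept their direction. Most were counts, which cannot reverse, and of the differences in peaks per library none reversed. Without the peaks above the 90th percentile of local background in their list, E2F1 regions near the family fell to 6, genes within 10 kb to 5 and genes at an end to 4, with both factors at 1 gene and 0 shared regions. This removed the gene-end regions of e2f1, e2f3, e2f7 and e2f8, and the part of local background in these regions was not tested. Leaving out 1 E2F1 list at a time gave 1 to 3 shared regions, and leaving out 1 OTX1 list 2 to 3. Leaving out 1 OTX1 list also gave 8 to 10 OTX1 regions, 6 genes within 10 kb, 2 at an end and 5 to 6 with both factors. With a −log10 q of at least 5, or lists of equal length, there were 0 genes with OTX1 at an end and 0 shared regions. Counting a peak in either list, an alternative chosen after seeing the data, gave 14 OTX1 regions, 7 genes within 10 kb, 3 at an end, 7 with both factors and 6 shared regions. With summits within 500 bp, tfdp1 lost its gene-end call. With the replicate block, added after seeing the data, E2F1 lists held 3 and 6 more peaks near the family than OTX1 lists of the same number, a mean of 4.5 (exact sign-flip permutation p = 0.5, two-sided, the smallest 2 pairs allow), and the labels do not tie equal numbers to shared embryos.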

Other observations

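Of 4 OTX gene names, 3 matched a gene. All 3 had regions of both factors within 10 kb, where 28.4% of all protein-coding genes did. None had a summit within 1 kb of an end, where 34.9% of all genes did for E2F1 and 7.18% for OTX1. Otx1 had 4 E2F1 regions and 1 OTX1 region within 10 kb, otx2 had 3 and 1, where 3.74% of all genes had 3 or more E2F1 regions, and crx, a related homeobox gene, had 2 and 3. The highest E2F1 folds among them were 6.30 and 8.17, inside crx. Inside otx1, the stronger E2F1 region had folds of 5.61 and 6.63 from 84 and 104 fragments, and a weaker one 2.85 and 3.01. The OTX1 region beyond the end of otx1 had folds of 3.89 and 4.93, and that inside otx2 had 4.91 and 3.35.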
